A study of Homo sapiens with 26 samples.

Results

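MARCKSL1 and MARCKS are the 2 genes described here, the pair of the MARCKS family, in 786-O cells in which siRNAs lowered genes that the labels call speckle protein genes. Nuclear speckles are bodies of the nucleus rich in splicing and mRNA export factors. They were taken as the rows of those symbols, and both have a row in each of the 3 deposited tables, 2 of 11679 genes in the DDX39A and SARNP table, 2 of 12140 in the FIBP and TMEM259 table and 2 of 11823 in the SART1 table. The genes were selected on their values with each siRNA against the controls of its own table. Those values are therefore given as a description, with no test.

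786-O is an established human clear cell renal carcinoma line without functional VHL, and every library came from it. Poly(A) RNA of 26 libraries was sequenced, in 13 groups of 2. Cells of 10 groups received 1 siRNA each, with siRNAs 4 and 6 against SART1, 1 and 4 against DDX39A, 3 and 9 against SARNP, 6 and 7 against FIBP, and 5 and 6 against TMEM259 (C19orf6 in the labels), and the other 3 groups received a non-targeting siRNA. All were transfected with DharmaFECT 1, split at 24 h and harvested at 48 h, so a difference from the controls is one between siRNAs, and cells without any siRNA were not analysed here. SART1 is a splicing factor of the tri-snRNP, DDX39A an RNA helicase of mRNA export, SARNP an RNA-binding protein of the TREX export complex, FIBP an intracellular binding protein of FGF1, and TMEM259 (membralin) a membrane protein of the endoplasmic reticulum. The labels do not say that the 2 libraries of a group are from separate transfections, so p-values measure only the spread between these libraries, which may be technical.

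MARCKS, the myristoylated alanine-rich C-kinase substrate, is held at the inner face of the plasma membrane by an N-terminal myristoyl chain and by a short basic stretch, the effector domain, that binds the acidic lipid PIP2. Calcium-loaded calmodulin binds the same stretch, and protein kinase C phosphorylates it, and either event releases the protein from the membrane. MARCKSL1 (MARCKS-like 1, also called MRP or MacMARCKS) has the same myristoyl anchor and effector domain, and both proteins bind actin and take part in the shape and movement of the cell edge.

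Libraries held between 8966609 and 26128173 gene reads, and the members were counted from 181 to 1044 reads (MARCKSL1) and from 883 to 2518 reads (MARCKS) per library. Each siRNA left less of its own target, from 8.48% of control (SARNP siRNA 9) to 48.3% (TMEM259 siRNA 6). The kidney genes PAX8, PAX2 and CDH6 had a row in every table, the hypoxia marker CA9 had none in any, and PTPRC and PECAM1, which mark blood and endothelial cells, had none either. The rule that limited the tables to their genes is not stated.

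The bases before the RefSeq start sites differ between the pair. Each line holds 250 bases up to the RefSeq start of the gene, read 5′ to 3′ on the strand of the gene, from chr1:32336234-32336483 on the minus strand for MARCKSL1 and chr6:113857095-113857344 on the plus strand for MARCKS, in GRCh38.p14. Capitals mark matches, on either strand, to a TATA box (TATANAN, where either N is an A or a T), a CCAAT box (its name gives the letters) or a GC box. The letters searched for the GC box were GGGCGG.
MARCKSL1: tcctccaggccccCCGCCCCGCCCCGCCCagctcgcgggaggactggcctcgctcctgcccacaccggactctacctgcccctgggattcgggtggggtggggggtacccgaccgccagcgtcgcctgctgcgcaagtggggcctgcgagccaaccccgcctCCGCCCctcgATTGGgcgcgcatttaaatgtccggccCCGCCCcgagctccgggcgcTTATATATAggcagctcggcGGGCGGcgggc
MARCKS: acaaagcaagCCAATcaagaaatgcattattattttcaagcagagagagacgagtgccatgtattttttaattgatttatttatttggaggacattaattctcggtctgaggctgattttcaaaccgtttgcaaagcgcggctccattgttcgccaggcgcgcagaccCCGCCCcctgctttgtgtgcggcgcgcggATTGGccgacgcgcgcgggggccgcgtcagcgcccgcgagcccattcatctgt
The MARCKSL1 window had 74.0% G and C and 28 CpG, and the MARCKS window 52.8% and 23 CpG, beside a median of 58.0% G and C over 35116 promoter windows of the same length. In MARCKSL1, 3 overlapping TATA box matches began 29, 30 and 31 bases before the start, and MARCKS had 0, where 9.28% of all windows held at least 1. The CCAAT box had 1 match in MARCKSL1, at 78 bases, and 2 in MARCKS, at 53 and 240 bases, against 32.0% of all windows with a match. The GC box had 6 matches in MARCKSL1 and 1 in MARCKS, at 82 bases, against 42.6% of windows. The E box CACGTG had 0 matches in either gene and was in 6.35% of windows. These are letter matches in 1 window and no evidence of binding. The transcript model of GENCODE release 29 starts 146 bases upstream of the RefSeq start for MARCKSL1 and 17 bases downstream for MARCKS. By that model the TATA and CCAAT box matches of MARCKSL1, and its GC boxes at 88, 51 and 11 bases, lie downstream of the start.

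The mRNAs also differ in length and composition. In GENCODE release 29, MARCKSL1 has 2 exons and a spliced length of 1699 bases, with 346 bases of 5′ UTR, 585 coding and 768 of 3′ UTR, at 59.3% G and C. MARCKS has 2 exons and 4275 bases, with 384, 996 and 2895 in the same order, at 43.8% G and C. The models share 0 words of 42 bases, the length of 1 read, among the 1658 of MARCKSL1 and the 4234 of MARCKS, and 0 of these words occur in annotated transcripts of another gene, so exact reads of the family members could be told apart. Per kilobase of these models, control cells had a MARCKSL1 signal of 394 ± 5.4 (SD, n = 2), 333 ± 6.89 and 587 ± 17.0 in the DDX39A and SARNP, FIBP and TMEM259, and SART1 tables, and a MARCKS signal of 337 ± 30.3, 242 ± 14.7 and 421 ± 10.3. MARCKSL1 was thus the higher of the pair per length in all 6 control libraries, by 1.11 to 1.46 times. Tables were normalized separately, so levels are not compared between them.

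MARCKSL1 was lower than in both controls in 18 of 20 knockdown libraries and higher in 2, those of SARNP siRNA 3. How often other genes lay outside their 2 controls was not counted, so these counts alone do not set MARCKSL1 apart. The share of genes with a lower log2 change than MARCKSL1 was 0.12% with DDX39A siRNA 1. It was 8.24% with FIBP siRNA 7, 14.3% with SART1 siRNA 6 and 92.6% with SARNP siRNA 3. In bulk RNA, fewer cells with an mRNA and less of it per cell cannot be told apart. In the DDX39A and SARNP table its normalized signal was 663 and 676 in control libraries, 248 and 207 with DDX39A siRNA 1, and 305 and 320 with DDX39A siRNA 4. Both DDX39A siRNAs thus left less than the controls, with log2 changes of -1.56 and -1.10 (SE 0.08).
With SARNP siRNA 9 the MARCKSL1 signal was 271 and 254, and with SARNP siRNA 3 it was 913 and 944. The siRNAs against SARNP stood on opposite sides of the controls, with log2 changes of -1.35 and 0.47 (SE 0.08), although each had lowered SARNP itself, siRNA 9 leaving 8.48% of its control level and siRNA 3 leaving 13.5%.

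In the FIBP and TMEM259 table, MARCKSL1 signal was 574 and 558 in control libraries. It was 367 and 395 with FIBP siRNA 6 and 402 and 432 with FIBP siRNA 7. With TMEM259 it was 298 and 324 (siRNA 5) and 290 and 322 (siRNA 6). No library of these knockdowns reached the controls, and the log2 changes were -0.57 and -0.44 for FIBP and -0.86 and -0.89 for TMEM259 (SE 0.08). In the SART1 table, the MARCKSL1 signal was 977 and 1018 in control libraries, 659 and 653 with siRNA 4, and 745 and 693 with siRNA 6. Here too every knockdown library was below both controls, with log2 changes of -0.60 and -0.47 (SE 0.06). Knockdowns of a table share its 2 control libraries, so the 10 changes rest on 3 pairs of controls and are not 10 independent observations.

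**Figure D1:**
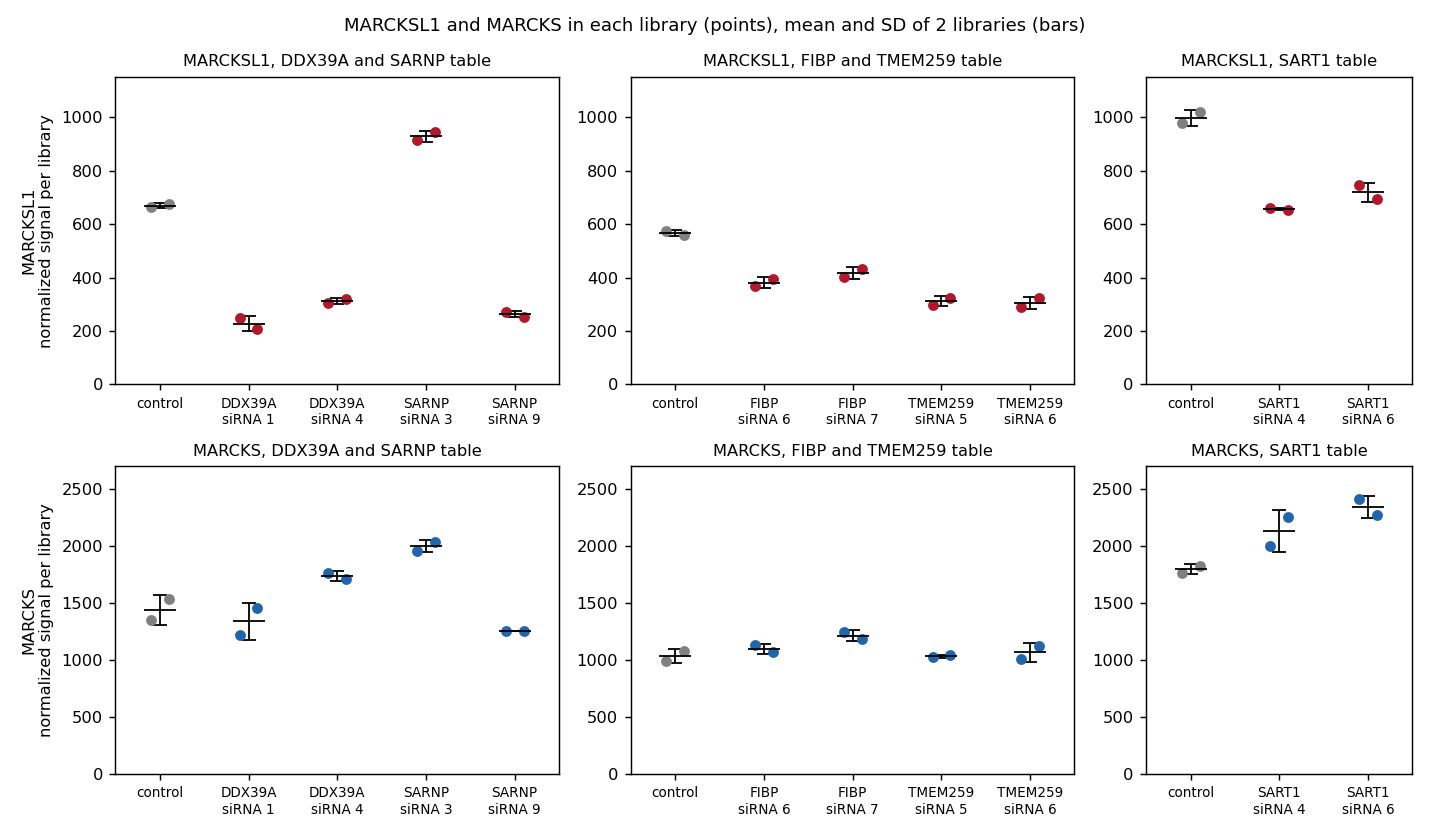
Normalized signal (y axis, from 0) of MARCKSL1 (upper panels) and MARCKS (lower panels) in each library (points) of the 3 tables, with the mean and SD of 2 libraries (bars) and control libraries in grey. MARCKSL1 points lie below the controls with 9 of 10 siRNAs and above them with SARNP siRNA 3, while the MARCKS points of 4 siRNAs overlap the controls.

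MARCKS did not share this one-sided pattern: 12 of 20 knockdown libraries were above both controls, 3 were below both and 5 were in between. The same was not counted for all genes. In the DDX39A and SARNP table, 92.7% of genes had a lower log2 change than MARCKS with SARNP siRNA 3, and 30.4% with siRNA 9. The MARCKS signal in that table was 1348 and 1531 in control libraries, 1223 and 1453 with DDX39A siRNA 1, and 1768 and 1708 with DDX39A siRNA 4. DDX39A siRNA 1 overlapped the controls (log2 -0.11, SE 0.06), and siRNA 4 lay above them (0.27). With SARNP siRNA 3 the MARCKS signal was 1960 and 2035, above the controls (0.47), and with siRNA 9 it was 1253 and 1251, below them (-0.20). Without control replicate 2, the change with SARNP siRNA 9 was -0.11 and that with DDX39A siRNA 1 was -0.02, and without DDX39A siRNA 1 replicate 1 the latter was 0.02. Without control replicate 1, the change with DDX39A siRNA 4 was 0.18 and that with DDX39A siRNA 1 was -0.20. The only siRNA with both MARCKS libraries below the controls was thus SARNP siRNA 9, one of the lowest for MARCKSL1 also.

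In the FIBP and TMEM259 table, MARCKS signal was 990 and 1079 in control libraries, 1129 and 1069 with FIBP siRNA 6, and 1247 and 1180 with FIBP siRNA 7. With TMEM259 it was 1023 and 1041 (siRNA 5) and 1007 and 1124 (siRNA 6). FIBP siRNA 7 alone stood apart from the controls in this table (log2 0.23, SE 0.06), and the other 3 siRNAs overlapped them (0.09, -0.00 and 0.04). Leaving out 1 library at a time, these 3 ran from 0.03 to 0.15, from -0.064 to 0.06 and from -0.0365 to 0.12, the lowest of FIBP siRNA 6 without control replicate 1 and the highest without control replicate 2. In the SART1 table, MARCKS signal was 1767 and 1829 in control libraries, 2000 and 2260 with siRNA 4, and 2413 and 2274 with siRNA 6. Both SART1 siRNAs lay above the controls for MARCKS (0.24 and 0.38, SE 0.05) while lying below them for MARCKSL1. Without siRNA 4 replicate 2 its change was 0.15.

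Ordered by percent of the control mean, MARCKSL1 stood lowest with DDX39A siRNA 1 (34.0% ± 4.31, SD, n = 2), followed by SARNP siRNA 9 (39.2% ± 1.78) and DDX39A siRNA 4 (46.7% ± 1.63). The libraries of these 3 siRNAs did not overlap each other. TMEM259 siRNAs 6 and 5 came next at 54.0% and 54.9% and overlapped, and SART1 siRNA 4 (65.7%), FIBP siRNA 6 (67.3%), SART1 siRNA 6 (72.1%) and FIBP siRNA 7 (73.7%) followed, each overlapping the one before it among these 4. SARNP siRNA 3 stood apart at 138.7% ± 3.23. For MARCKS the order ran from SARNP siRNA 9 (86.9%) through DDX39A siRNA 1 (92.9%), TMEM259 siRNA 5 (99.8%) and TMEM259 siRNA 6 (103.1%) to FIBP siRNA 6 (106.2%), and neighbours among these 5 overlapped. FIBP siRNA 7 did not overlap FIBP siRNA 6. FIBP siRNA 7 (117.4%), SART1 siRNA 4 (118.4%) and DDX39A siRNA 4 (120.7%) also overlapped in turn. No library of SART1 siRNA 6 (130.4%) or SARNP siRNA 3 (138.7%) overlapped its neighbours in this order. Such overlap takes each control mean as fixed, and tables have different controls. Over all settings run, the log2 change of MARCKS ranged from 0.38 to 0.57 with SARNP siRNA 3. It ranged from 0.30 to 0.42 with SART1 siRNA 6 and from 0.18 to 0.37 with DDX39A siRNA 4, so neighbouring ranges overlapped. SARNP siRNA 3 had the highest mean percent for both genes.

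**Figure D2:**
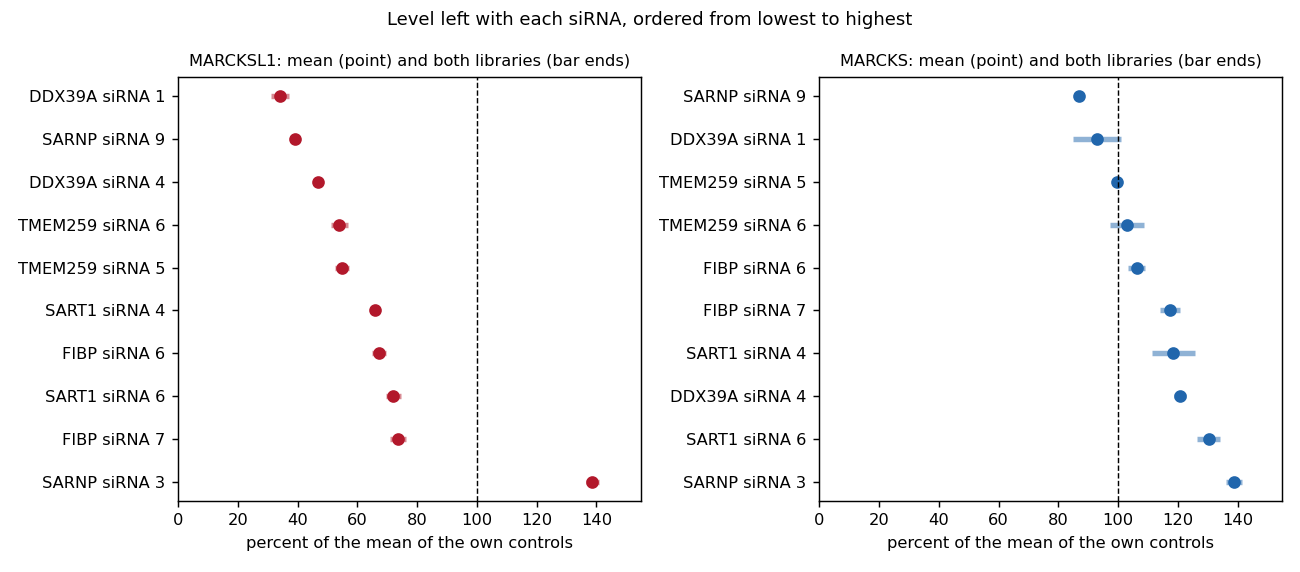
Percent of the mean of the table's own controls (x axis, dashed line at 100) for each siRNA, ordered from the lowest, with the mean of 2 libraries (points) and both libraries (bar ends). MARCKSL1 ranges from 34.0% with DDX39A siRNA 1 to 138.7% with SARNP siRNA 3, and MARCKS from 86.9% to 138.7%.

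The level of MARCKSL1 and the share of the target left are set side by side here, with no test. SARNP siRNA 3 left 13.5% of SARNP and DDX39A siRNA 1 left 14.0% of DDX39A, and MARCKSL1 stood at 138.7% and 34.0%. TMEM259 siRNA 6 left 48.3% of TMEM259, the largest share, and MARCKSL1 stood at 54.0%. That was below its level with FIBP siRNA 6, which left 11.0% of FIBP. Within a target, the siRNA that left less of it had the lower MARCKSL1 for DDX39A, SARNP and FIBP. DDX39A siRNA 4 left 16.5%, with MARCKSL1 at 46.7%. SARNP siRNA 9 left 8.48% (MARCKSL1 39.2%), and FIBP siRNAs 6 and 7 left 11.0% and 17.1% (67.3% and 73.7%). For SART1 and TMEM259 that siRNA had the higher MARCKSL1. SART1 siRNAs 6 and 4 left 26.8% and 33.3% (72.1% and 65.7%), and TMEM259 siRNA 5 left 30.3% (54.9%). MARCKSL1 did not pass between the siRNAs of FIBP, SART1 and TMEM259 (limma adjusted p = 0.221, 0.0891 and 0.851), so its order there is uncertain.

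The balance of the pair was read within each library as the log2 ratio of MARCKSL1 to MARCKS signal. Against the mean of its controls this ratio was lower by over 1 with 3 siRNAs. With DDX39A siRNA 1 the difference was -1.20 and -1.70, and with siRNA 4 it was -1.43 and -1.31. With SARNP siRNA 9 it was -1.10 and -1.20, and with SARNP siRNA 3 it was -0.00 and -0.01. The 2 genes thus stood higher by the same factor with SARNP siRNA 3, and their ratio lay between those of the 2 control libraries (0.08 and -0.08). With FIBP siRNAs the difference was between -0.76 and -0.57, with TMEM259 siRNAs between -0.93 and -0.81, and with SART1 siRNAs between -0.94 and -0.75, each outside its controls.

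**Figure D3:**
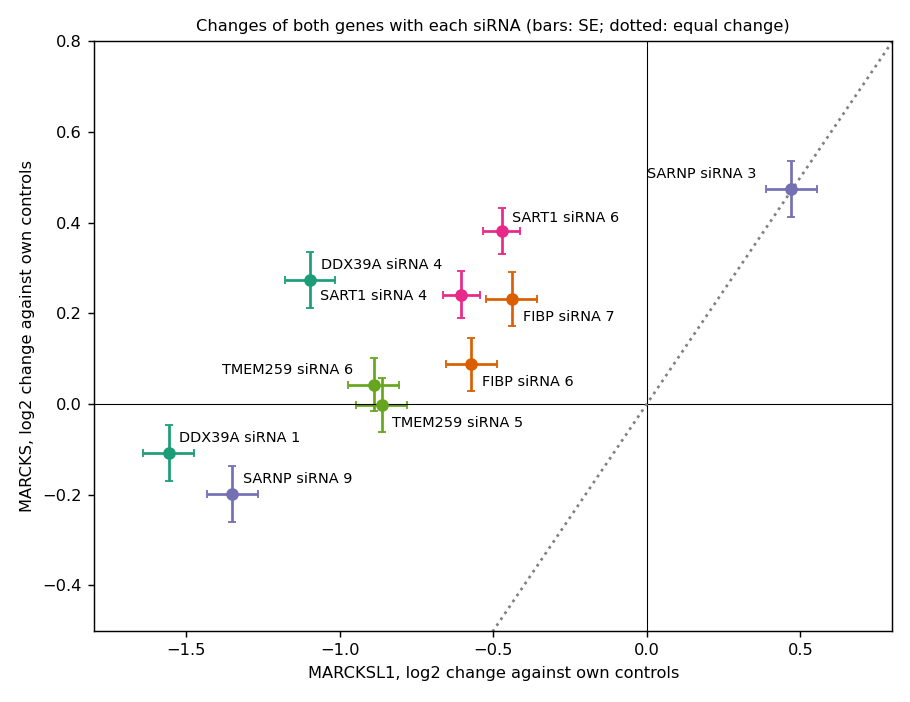
Log2 change against the own controls of MARCKSL1 (x axis) and MARCKS (y axis) with each of 10 siRNAs, with SE bars and a dotted line of equal change. SARNP siRNA 3 lies on the dotted line at 0.47 for both genes, and the other 9 siRNAs lie to its left.

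Between the siRNAs of a target, which compares knockdown libraries with each other and uses no control, the level of both genes differed for SARNP and DDX39A. The same knockdown libraries enter the values on which the genes were selected, so these tests are not independent of that selection. MARCKSL1 was lower with SARNP siRNA 9 than with siRNA 3 by a log2 difference of -1.82 (SE 0.08, 95% interval -1.99 to -1.65, limma adjusted p = 5.45e-21), and MARCKS by -0.67 (SE 0.06, -0.80 to -0.55, limma adjusted p = 3.96e-12). Of all genes tested 64.1% differed between these SARNP siRNAs. With DDX39A siRNA 4, MARCKSL1 was higher than with siRNA 1 by 0.46 (SE 0.08, 0.29 to 0.63, limma adjusted p = 1.35e-05) and MARCKS by 0.38 (SE 0.06, 0.26 to 0.51, limma adjusted p = 2.22e-06), where 50.6% of genes differed. A difference that passed was thus common among all genes, so passing alone does not set the pair apart. The size of these differences was not ranked among all genes.

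For the other 3 targets the differences were smaller. MARCKS was higher with SART1 siRNA 6 than with siRNA 4 by 0.14 (95% interval 0.03 to 0.25, limma adjusted p = 0.0331), a call lost with DESeq2 (adjusted p = 0.109), with quantile normalization (limma adjusted p = 0.115) and without siRNA 4 replicate 1 (0.05, limma adjusted p = 0.477) or siRNA 6 replicate 1 (0.10, limma adjusted p = 0.282). MARCKSL1 differed by 0.13 there, with an interval of 0.01 to 0.26, and did not pass (limma adjusted p = 0.0891). Of all genes, 38.5% differed between the SART1 siRNAs. Between FIBP siRNAs 7 and 6 the intervals were -0.04 to 0.30 for MARCKSL1 (limma adjusted p = 0.221) and 0.03 to 0.26 for MARCKS (limma adjusted p = 0.052), where 35.7% of genes differed. Between TMEM259 siRNAs 6 and 5 they were -0.19 to 0.14 (limma adjusted p = 0.851) and -0.07 to 0.16 (limma adjusted p = 0.612), where 32.1% differed.

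**Figure D4:**
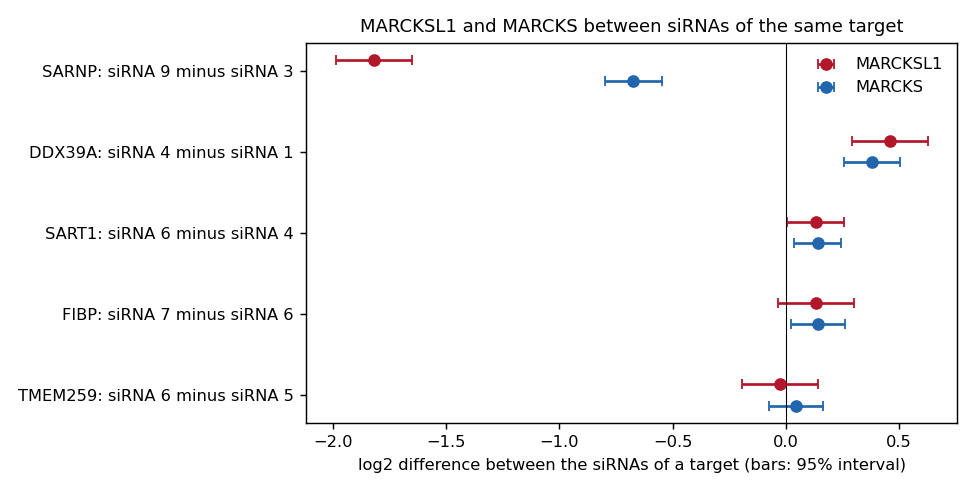
Log2 difference between the siRNAs of each target (x axis; points, with 95% intervals) for MARCKSL1 and MARCKS, the higher-numbered siRNA minus the lower-numbered. For SARNP both genes lie below 0, at -1.82 and -0.67, for DDX39A both lie above 0, and the TMEM259 intervals hold 0.

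The genes around the MARCKS proteins were taken from 6 lists of 86 genes: protein kinase C isoforms, calmodulin and calcineurin, enzymes that make or use PIP2, N-myristoylation, other membrane substrates of protein kinase C, and linkers of actin and membrane. A gene was called when limma gave an adjusted p below 0.05 with the same sign for each siRNA of a target. With DDX39A 10 of 73 measured genes rose and 3 fell, where 8.67% of all genes rose and 6.37% fell. With SARNP 8 of 73 rose and 19 fell (7.17% and 7.15% of all genes), with FIBP 4 of 73 rose and 12 fell (4.68% and 4.39%), with TMEM259 3 of 73 rose and 1 fell (2.56% and 2.41%), and with SART1 24 of 74 rose and 19 fell (22.9% and 20.0%). Without control replicate 2 of its table the count of DDX39A, 13 in both directions, became 7 and that of FIBP went from 16 to 10, and the count of TMEM259 went from 4 to 2 without control replicate 1 or with quantile normalization. Both siRNAs of a target share their controls, which adds to such counts, and no list was tested as a set.

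Protein kinase C phosphorylates the effector domain. Of its isoform genes, 5 or 6 were measured, depending on the table. PRKCE, an isoform that needs no calcium, rose from 197 ± 9.61 (SD, n = 2) to 276 ± 19.6 and 264 ± 6.9 with DDX39A siRNAs 1 and 4, and to 257 ± 6.45 and 455 ± 24.4 with SARNP siRNAs 3 and 9. It thus rose with SARNP siRNA 3 as with siRNA 9, where MARCKSL1 stood on opposite sides of the controls. PRKCQ was also called up with SARNP (log2 1.44 and 1.59, SE 0.38), from a low control level of 7.44 ± 4.48. That control level is below the filter of 10, which PRKCQ met only through knockdown groups. Its call is thus in part a result of the filter and is no support for a rise. PRKCQ remains in the SARNP count and in the DDX39A and SARNP medians below. PRKCA, the calcium-dependent isoform, fell with FIBP siRNAs 6 and 7 (-0.19 and -0.66, SE 0.05), and PRKCD rose with SART1 siRNAs 4 and 6 (0.15 and 0.31, SE 0.05). The median log2 change of the isoforms was 0.24 with DDX39A, 0.08 with SARNP, -0.22 with FIBP, -0.15 with SART1 and 0.04 with TMEM259, beside -0.00 to -0.01 for all genes tested in each.

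Calmodulin competes with the membrane for the effector domain. With FIBP siRNAs CALM3 fell from 3582 ± 65.4 (SD, n = 2) to 2271 ± 107 and 2333 ± 0.249, and RCAN1, a regulator of the calmodulin-dependent phosphatase calcineurin, rose (log2 0.33 and 0.49, SE 0.07). With SART1 siRNAs RCAN1 (0.81 and 0.29, SE 0.05) and CALM2 (0.34 and 0.41, SE 0.03) rose, and CALM3 fell (-0.34 and -0.17, SE 0.04). Of 9 measured genes of calmodulin and calcineurin, 3 rose and 3 fell with SART1 (22.9% and 20.0% of all genes). With DDX39A 1 rose and 0 fell (8.67% and 6.37%), and with FIBP 1 rose and 3 fell (4.68% and 4.39%). With SARNP 0 rose and 3 fell (7.17% and 7.15%), and with TMEM259 0 rose and 1 fell (2.56% and 2.41%). PPP3CA, a catalytic subunit of calcineurin, fell with SARNP (-0.21 and -0.70, SE 0.06) and FIBP (-0.47 and -0.17, SE 0.06), and PPP3R1, its regulatory subunit, rose with DDX39A (0.27 and 0.22, SE 0.05) and SART1 (0.29 and 0.44, SE 0.04).

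PIP2 is the lipid that the effector domain covers. OCRL, a phosphatase that removes a phosphate from PIP2, rose with both siRNAs of each of the 5 targets, DDX39A (log2 0.48 and 0.77, SE 0.06), SARNP (0.42 and 0.85, SE 0.06), FIBP (0.23 and 0.33, SE 0.07), TMEM259 (0.33 and 0.39, SE 0.07) and SART1 (0.45 and 0.34, SE 0.05). PIP4K2A, a kinase that makes PIP2 from PI5P, rose from 1181 ± 24.6 (SD, n = 2) to 1825 ± 77.8 and 1902 ± 28.3 with DDX39A siRNAs, rose with SARNP (0.65 and 0.43, SE 0.05) and fell with FIBP (-0.22 and -1.14, SE 0.06). PLCB4, a phospholipase C that cleaves PIP2, fell with SARNP (-0.90 and -0.79, SE 0.06), FIBP (-0.24 and -0.69, SE 0.05) and SART1 (-0.46 and -0.16, SE 0.05). The phospholipases PLCB3 and PLCD3 rose with DDX39A (0.29 and 0.15, SE 0.06; 0.21 and 0.25, SE 0.08). With SART1 PLCB3 (-0.72 and -0.95, SE 0.07) and PLCD3 (-0.56 and -0.53, SE 0.07) fell, and the kinase PIP4K2C rose (0.53 and 0.59, SE 0.06). Of the list 4 of 20 measured genes rose and 0 fell with DDX39A (8.67% and 6.37% of all genes). With SARNP 5 of 20 rose and 1 fell (7.17% and 7.15%), and with FIBP 1 of 21 rose and 2 fell (4.68% and 4.39%). With SART1 5 of 21 rose and 9 fell (22.9% and 20.0%), and with TMEM259 1 of 21 rose and 0 fell (2.56% and 2.41%).

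Of the 4 enzymes that prepare and attach the myristoyl anchor, 0 rose and 1 fell with DDX39A (8.67% and 6.37% of all genes). With SARNP 0 rose and 1 fell (7.17% and 7.15%), and with SART1 1 rose and 1 fell (22.9% and 20.0%). With FIBP (4.68% and 4.39%) and TMEM259 (2.56% and 2.41%) 0 were called. NMT2, an N-myristoyltransferase, fell with SARNP (log2 -0.28 and -0.41, SE 0.06) and SART1 (-0.16 and -0.46, SE 0.05). METAP2, which removes the first methionine, fell with DDX39A (-0.17 and -0.37, SE 0.05) and rose with SART1 (0.25 and 0.28, SE 0.03). These were all the calls among the 4 genes of that list. Among other membrane proteins that protein kinase C phosphorylates, BASP1, which like MARCKS has a myristoyl anchor and a basic stretch, fell from 4007 ± 56.4 (SD, n = 2) to 2566 ± 143 and 2676 ± 65.7 with SARNP siRNAs 3 and 9 and to 3630 ± 127 and 2170 ± 101 with DDX39A siRNAs 1 and 4, and it rose with SART1 (0.28 and 0.35, SE 0.04). With SARNP siRNA 3 BASP1 thus fell while both members stood above their controls. The adducin ADD3 rose with DDX39A (0.21 and 0.16, SE 0.06) and fell with FIBP (-0.31 and -0.70, SE 0.06) and SART1 (-0.46 and -0.21, SE 0.04), ADD1 fell with FIBP (-0.15 and -0.31, SE 0.05) and SART1 (-0.26 and -0.14, SE 0.04), and AKAP12 rose with SART1 (0.20 and 0.42, SE 0.04). GAP43 and ADD2 had no row.

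**Figure D5:**
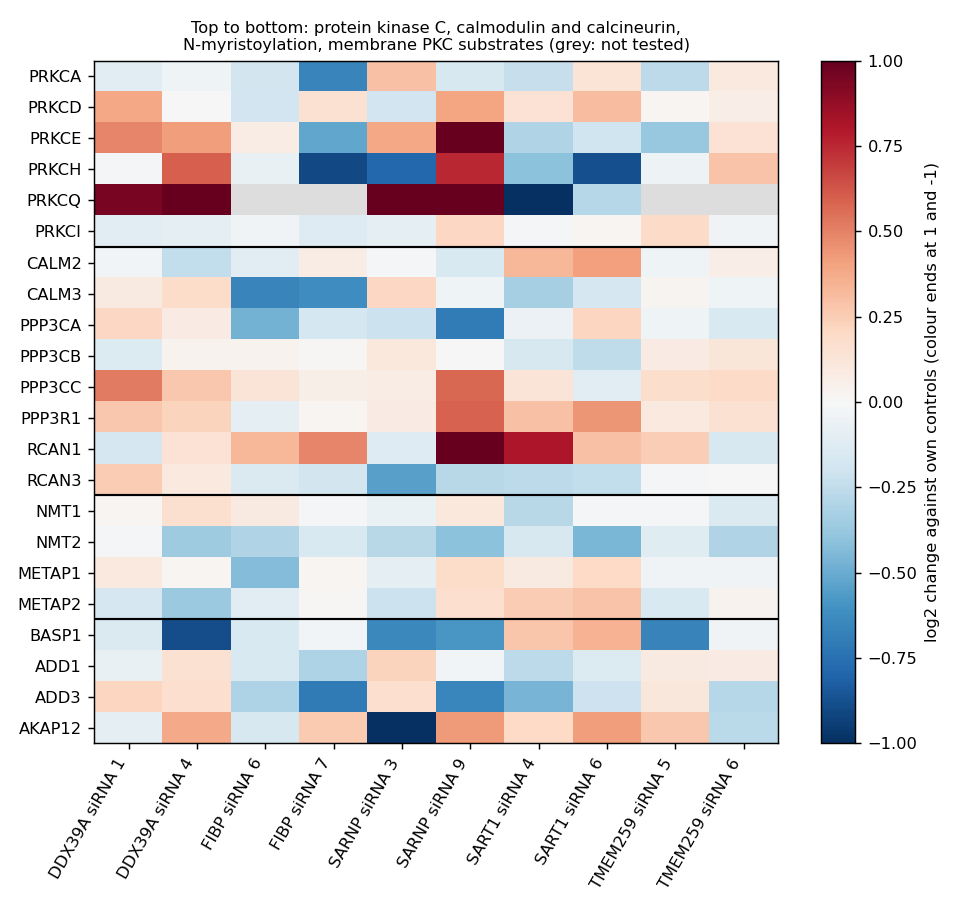
Log2 change against the own controls (colour, ending at 1 and -1) of genes of 4 lists (rows) with each siRNA (columns), where grey marks a gene not tested in that table. PRKCE is red with both siRNAs of DDX39A and SARNP, CALM3 is blue with both of FIBP, and BASP1 is blue with those of SARNP and DDX39A.

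All 30 actin and membrane linkers were measured. With SARNP 13 fell and 1 rose (7.15% and 7.17% of all genes), with a median log2 change of -0.16. With SART1 4 fell and 12 rose (20.0% and 22.9%), with a median of 0.15. Of all genes, 8.67% rose and 6.37% fell with DDX39A, 4.68% and 4.39% with FIBP, and 2.56% and 2.41% with TMEM259. LCP1, a bundler of actin, fell from 2931 ± 11.82 (SD, n = 2) to 1565 ± 3.39 and 2251 ± 3.8 with SARNP siRNAs 3 and 9, and ENAH, which extends actin filaments, fell by 0.24 and by 0.35 on the log2 scale (SE 0.05). The branched-actin regulator CTTN was the 1 linker that rose with SARNP (0.28 and 0.28, SE 0.05). With SART1 FSCN1, which bundles filaments, rose from 6881 ± 72.6 (SD, n = 2) to 10078 ± 209 and 9869 ± 187, VASP rose (0.42 and 0.82, SE 0.04), and PFN2, a profilin, fell (-0.47 and -0.80, SE 0.04). DDX39A gave 3 that rose, among them CORO1B (0.36 and 0.50, SE 0.07) and VASP (0.13 and 0.36, SE 0.05), and 1 that fell, the filament-severing CFL2 (-1.25 and -0.37, SE 0.06). FIBP gave 2 that rose, MSN (0.38 and 0.32, SE 0.03) and FLNC (0.25 and 0.20, SE 0.03), and 4 that fell, among them ANXA2 (-0.38 and -0.96, SE 0.03) and EZR (-0.34 and -0.31, SE 0.04), so that of the related linkers moesin rose and ezrin fell. TMEM259 gave 2 that rose, FLNC (0.25 and 0.21, SE 0.03) and CORO1C (0.26 and 0.11, SE 0.03), and 0 that fell. Several of these linkers were called in other knockdowns too. With SARNP ANXA2 (-0.13 and -0.83, SE 0.05), EZR (-0.20 and -0.24, SE 0.04) and FSCN1 (-0.22 and -0.12, SE 0.04) fell. With SART1 MSN (0.34 and 0.48, SE 0.03), CORO1C (0.42 and 0.32, SE 0.03) and ENAH (0.10 and 0.20, SE 0.04) rose, and FLNC fell (-0.36 and -0.34, SE 0.04).

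Over the 10 siRNAs, the changes of MARCKSL1 and MARCKS had a Pearson r of 0.82. This r, and those that follow, describe 10 points that share controls within a table, and r between the pair was 0.74 without SARNP siRNA 3, a setting chosen after seeing that this siRNA stood apart. Among 9977 genes with a mean of at least 50 in each table, the changes most like those of MARCKSL1 were those of DHPS (0.93), the enzyme that starts hypusine formation on eIF5A, ALG8 (0.92), a glucosyltransferase of N-glycan assembly, DDT (0.91), D-dopachrome tautomerase, FAM200B (0.90) and the noncoding RNA HOTAIRM1 (0.89). Of these HOTAIRM1 had the widest range of log2 change, from -1.06 with SARNP siRNA 9 to 0.12 with SARNP siRNA 3, and ALG8 one of -0.10 to 0.26. DHPS ran only from -0.17 to 0.21, where MARCKSL1 ran from -1.56 to 0.47, so a high r does not mean changes of like size. The most opposed were UBE2D2 (-0.94), a ubiquitin-conjugating enzyme, DENND1A (-0.93), an activator of Rab GTPases, AGAP1 (-0.93), a GTPase-activating protein for Arf, MBD3 (-0.90), a subunit of the NuRD complex, and ATP11A (-0.90), a lipid flippase. UBE2D2 ran only from -0.26 to 0.20, and each of these 5 was lowest with SARNP siRNA 3. Without that siRNA, r was 0.85, 0.87, 0.98, 0.89 and 0.87 for the 5 most alike, in the order named. It was -0.85, -0.88, -0.86, -0.77 and -0.86 for the 5 most opposed. The named genes were picked as the extremes of 9977, so a high r is in part a result of that choice.

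For MARCKS the most alike were OS9 (r = 0.95), a lectin of the degradation of misfolded proteins in the endoplasmic reticulum, RIPK4 (0.93) and PRKX (0.91), both kinases, ING4 (0.91), a chromatin reader, and ANAPC11 (0.91), a subunit of the anaphase-promoting complex. The range was widest for ING4, from -0.93 with SARNP siRNA 9 to 0.24 with SARNP siRNA 3. The most opposed were HDHD2 (-0.95), CLIP4 (-0.91), ABI2 (-0.90), a subunit of the WAVE complex that drives branched actin, SESTD1 (-0.89) and ATP11A (-0.89), which was named for both members. CLIP4 ran from -0.46 with SARNP siRNA 3 to 0.83 with SARNP siRNA 9. Without SARNP siRNA 3, r lay between 0.87 (PRKX) and 0.96 (RIPK4) for those alike, and between -0.84 (ATP11A) and -0.93 (HDHD2) for those opposed. DDT and PRKX have near-identical paralogs, so their counts are uncertain.

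In RefSeq, the nearest genes with a row in a table were HDAC1 and FAM229A beside MARCKSL1, with 0 and 1 RefSeq genes in between, and HDAC2 and FAM229B beside MARCKS, with 3 and 36. The nearest genes with a row were thus 1 class I histone deacetylase and 1 FAM229 gene for each member. Of the 4, only HDAC1 was directly adjacent to its member. HDAC1 ranged from -0.13 to 0.22 on the log2 scale over the 10 siRNAs, and was called in 1 direction with both siRNAs only for DDX39A, where it rose (0.16 and 0.22, SE 0.04) while MARCKSL1 was lower. HDAC2 ranged from -0.49 with SARNP siRNA 3 to 0.34 with SART1 siRNA 6 and was called in 1 direction with both siRNAs only for SART1 (0.17 and 0.34, SE 0.04), where MARCKS was higher also. With SARNP siRNA 3 HDAC2 was lower (limma adjusted p = 1.10e-10) where MARCKS was higher. FAM229A (-1.11 to 0.37, SE 0.34 to 0.36) and FAM229B (-0.46 to 0.30) were not called with both siRNAs of any target, and FAM229A was low, with table means of 17.5 to 21.2.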

How the data were processed

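Poly(A) RNA of 26 libraries was read with a directional kit as paired ends of 42 bases, per the labels' protocols. The submitters' processing notes name the build hg19 and the tools STAR, HTSeq, DESeq2 and Picard, with no version, and annotation and counted strand are not given in the sources used here. The deposited tables hold normalized signal for each gene symbol, which the authors made by dividing counts by 1 size factor per library, as the values show: each was a whole multiple of 1 step per library (tolerance 0.0001 read), from which whole reads were recovered. Entries that name no gene (7.362% to 10.838% of reads) were kept apart.

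Genes with a mean of at least 10 (11673, 11768 and 11823 in the DDX39A and SARNP, FIBP and TMEM259, and SART1 tables) were fitted as log2(signal + 1), 1 model per table over all groups (limma 3.58.1 with trend, R 4.3.3, two-sided, Benjamini-Hochberg over all genes tested, threshold 0.05). Folds are on that scale. The method was tested on simulated data. Samples were grouped by title and treatment. Labels that misspell FIBP or SARNP, or name TMEM259 as C19orf6, were read as those targets. The members, lists and naming rules were chosen with earlier results of these data known. Named genes are the members, their nearest measured neighbours, up to 3 genes per list and target called by both siRNAs with the largest smaller change (a selection is printed, and some items that are withheld are not reported here), and the 5 genes most like and most opposed to each member. Alternatives were another pseudocount, other filters, DESeq2 1.42.0 and edgeR 4.0.16 (TMM) on recovered reads, quantile normalization, a replicate block, and leaving out each library. Promoters are from RefSeq (GRCh38.p14), with both members matched, and gene models from GENCODE release 29 (GRCh38), which is not the authors' build.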

Additional observations from a re-analysis of the deposited data

Results flagged for a closer look

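In 5 results the effects of the siRNAs of a target differed by the tested difference itself, in limma. These tests are not independent of the selection of the genes. Between the SARNP, DDX39A and SART1 siRNAs 64.1%, 50.6% and 38.5% of all genes differed, so such a difference was common. MARCKSL1 differed by -1.82 between SARNP siRNAs 9 and 3 and by 0.46 between DDX39A siRNAs 4 and 1, and MARCKS by -0.67, 0.38 and, between SART1 siRNAs 6 and 4, 0.14, all as log2 values. The last of these calls was lost with DESeq2 and with quantile normalization. For SARNP the direction against controls was opposite for both genes in every library of the 2 siRNAs.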

How the results depend on the processing

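Of the 220 values of a member against controls under another setting, 206 stayed within the spread of the libraries, and of 110 between siRNAs 99 kept direction and side of the threshold. The SARNP and DDX39A differences between siRNAs kept their call in every setting run. Quantile normalization gave 0.16 for MARCKSL1 between SART1 siRNAs (limma adjusted p = 0.0479), 0.0053 between TMEM259 siRNAs, 0.0298 for MARCKS with TMEM259 siRNA 5, 0.11 for MARCKS between SART1 siRNAs and 2 pathway genes for TMEM259. A mean of at least 50 gave 0.14 for MARCKS between FIBP siRNAs (limma adjusted p = 0.048), and DESeq2 gave 0.14 between SART1 siRNAs (adjusted p = 0.109). In the main fit the pathway counts were 13, 16, 27, 43 and 4 for DDX39A, FIBP, SARNP, SART1 and TMEM259. These counts were 14, 15, 18, 39 and 2 with quantile normalization and 9, 11, 23, 33 and 3 with DESeq2. The causes were not tested.

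Leaving out each library in turn, where the lone library is assumed to vary like the other groups, gave MARCKSL1 -1.69 to -1.43 with DDX39A siRNA 1, -0.52 to -0.42 with SART1 siRNA 6, 0.08 to 0.18 between SART1 siRNAs and -0.10 to 0.0514 between TMEM259 siRNAs. It gave MARCKS -0.23 to 0.016 with DDX39A siRNA 1, 0.15 to 0.33 with SART1 siRNA 4, -0.29 to -0.11 with SARNP siRNA 9, 0.03 to 0.15 with FIBP siRNA 6, -0.064 to 0.06 and -0.0365 to 0.12 with TMEM259 siRNAs 5 and 6, and -0.0344 to 0.12, 0.10 to 0.18 and 0.052 to 0.23 between siRNAs of TMEM259, FIBP (limma adjusted p = 0.0449 without siRNA 7 replicate 2) and SART1. Pathway counts ran from 7 to 14 for DDX39A, 10 to 16 for FIBP and 2 to 6 for TMEM259. The values that changed sign were 0.016 for MARCKS with DDX39A siRNA 1 without its replicate 1, 0.06 and 0.0106 with TMEM259 siRNA 5 (without control replicate 2 or its replicate 1), -0.0193 and -0.0365 with TMEM259 siRNA 6 (without control replicate 1 or its replicate 2), -0.0344 between TMEM259 siRNAs, and 0.0364 and 0.0514 for MARCKSL1 there.

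Same-numbered libraries had correlations of -0.06 to 0.055 over 23 pairs of groups, so the numbers were not taken as pairs. With a replicate block MARCKSL1 between SARNP siRNAs stayed at -1.82 (limma adjusted p = 1.76e-20) and MARCKS between SART1 siRNAs at 0.14 (limma adjusted p = 0.0198), and no call on a member changed. Pathway counts with the block were 14, 14, 27, 44 and 4 for DDX39A, FIBP, SARNP, SART1 and TMEM259. DESeq2 gave no adjusted p for 2, 3, 1 and 3 pathway values of DDX39A, FIBP, SART1 and TMEM259. Depth limits MARCKSL1 more than MARCKS, with at least 181 and 883 reads a library.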
